A study of Mus musculus with 9 samples.

Results

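The Ccl3, Ccl4 and Ccl5 chemokine cluster on mouse chromosome 11 was examined for binding of CTCF by CUT&RUN, an assay in which a nuclease guided by an antibody cuts out the DNA at the sites where the protein sits. The cluster was taken as every CTCF peak that overlaps the 350 kb from 83.25 to 83.6 Mb of chromosome 11 (mm9), an interval set to hold Ccl5, Ccl9, Ccl6, Ccl3 and Ccl4. Peaks of the 8 CTCF lists sharing 1 bp or more were joined, which gave 21 regions in the window out of 39574 on chromosomes 1 to 19 and X. Regions are numbered 1 to 21 by position. The window was proposed because peaks seen in naive DKO but not naive WT cells lay close together there. The window was thus selected on the presence of peaks in the DKO and WT libraries at 0 h, and all values of that contrast are given as a description with no test. Of the 21 regions, 8 had a peak in all 8 libraries (beside 24.2% of all regions), and 6 had a peak in only 1 or 2.

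The DKO groups were CD8+ T cells of genotype Tcf1-/-Lef1-/-, and the WT groups were cells with wild-type Tcf1 and Lef1. In the DKO mice the floxed alleles had been removed by hCD2-Cre, a recombinase driven by human CD2 sequences and active in lymphocytes. The mice of both genotypes carried hCD2-Cre and the Rosa26-lsl-GFP reporter, and GFP+ TCRbeta+ CD62Lhi CD44lo-med CD8+ splenocytes had been sorted, so all cells compared had recombined the reporter. Cells were taken after 72 h in IL-7 plus IL-15, cytokines that sustain CD8+ T cells, or at 0 h. Each of the 4 groups had 2 libraries, and a single IgG library made from naive WT cells was the antibody control. The labels do not say that replicates came from separate animals, so the spread between them may be technical, and age was not stated. The lists were not set against marker genes of CD8+ T cells, since no gene was placed in mm9 here.

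CTCF is a zinc-finger protein that halts the cohesin complex on chromatin and so marks loop anchors and insulators. Tcf1 and Lef1 are HMG-box transcription factors that maintain the identity of naive T cells. The chemokine genes encode small secreted proteins that attract leukocytes: Ccl3, Ccl4 and Ccl5 are typical products of effector and memory CD8+ T cells, while Ccl6 and Ccl9 are mouse chemokines made mainly by myeloid cells. In the reference gene order the cluster runs from Ccl5 past Ccl9 and Ccl6 to Ccl3 and Ccl4, with the pseudogenes Ccl16-ps and Rpl9-ps1 and the long non-coding RNAs E230016K23Rik and Gm38933 in between. Taf15 and Heatr9 lie before Ccl5 and Gm51868 lies after Ccl4. That order comes from another build (GRCm38), so the regions below are given by their mm9 position and are not assigned to a gene.

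Promoter sequence was at hand for 3 of the 5 chemokine genes and is shown with the element that gave CTCF, the CCCTC-binding factor, its name. The sequences are RefSeq's, from GRCm38.p6, and hold the 250 bases before each gene's start on its own strand: chr11:83578637-83578886 for Ccl9, chr11:83593088-83593337 for Ccl6 and chr11:83649379-83649628 for Ccl3, all on the minus strand. They are printed 5′ to 3′ in lower case, with CCCTC in capitals.
Ccl9: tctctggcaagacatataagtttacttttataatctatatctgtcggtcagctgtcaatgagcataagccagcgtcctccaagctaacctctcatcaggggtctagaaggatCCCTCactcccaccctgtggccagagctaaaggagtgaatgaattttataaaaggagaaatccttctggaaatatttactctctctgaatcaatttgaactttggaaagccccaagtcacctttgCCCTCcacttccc
Ccl6: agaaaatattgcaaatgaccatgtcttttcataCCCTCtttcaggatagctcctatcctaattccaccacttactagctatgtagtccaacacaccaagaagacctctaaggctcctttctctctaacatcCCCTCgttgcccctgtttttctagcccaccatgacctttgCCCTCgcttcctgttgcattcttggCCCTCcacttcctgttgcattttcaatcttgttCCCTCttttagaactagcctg
Ccl3: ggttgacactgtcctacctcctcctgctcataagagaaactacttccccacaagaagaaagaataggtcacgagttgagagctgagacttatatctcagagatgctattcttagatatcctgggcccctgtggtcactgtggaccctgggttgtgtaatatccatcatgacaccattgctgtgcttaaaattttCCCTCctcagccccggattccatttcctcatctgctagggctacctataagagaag
CCCTC, searched on both strands (GAGGG on the other), occurred 2 times before Ccl9, 5 times before Ccl6 and 1 time before Ccl3, always on the strand of the gene. It also occurred before 60.5% of all 32851 promoters of the table, as a run this short often does. The longer CTCF core, of 12 bases with 7 fixed letters, occurred in 0 of the 3 promoters over these bases and the 50 that follow, and in 8.61% of all promoters. A match is a description of letters and not of binding, no match says nothing of CTCF, and the sequence under the regions below was not analysed here.

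The 8 CTCF lists held 10339 to 32587 peaks, and the shortest were those of DKO cells at 72 h. At 72 h the DKO lists held 10339 and 16234 peaks and the WT lists 17335 and 26630. At 0 h the DKO lists held 30309 and 31394 peaks and the WT lists 32587 and 30968. Read depth is unknown here. Fold enrichment is the authors' value for a peak over its local background, and no CTCF list held a peak of fold under 4. An absent peak therefore means that none was listed, not that the protein was absent. The IgG list had 5 peaks, 0 of them in the window.

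Naive DKO cells had nearly every region of the window, and naive WT cells 11 or 13 of them. Regions 6, 11, 12, 13, 14 and 15 had peaks in naive DKO lists only, so they count as regions only through those lists. The window was also chosen on this contrast, so the counts are a description. The number of peaks in the window at 0 h was 20 and 21 in the DKO lists, against 13 and 11 in the WT lists, although the lists were of similar length. That was 0.66 and 0.669 peaks per 1000 listed in DKO, and 0.399 and 0.355 in WT. The adjoining 350 kb on each side did not show this gap: before the window there were 11 and 11 peaks in DKO and 12 and 9 in WT, and after it 9 and 9 in DKO and 9 and 8 in WT. The window was chosen on this contrast and the flanks were not, so nothing is read from that difference.

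**Figure D1:**
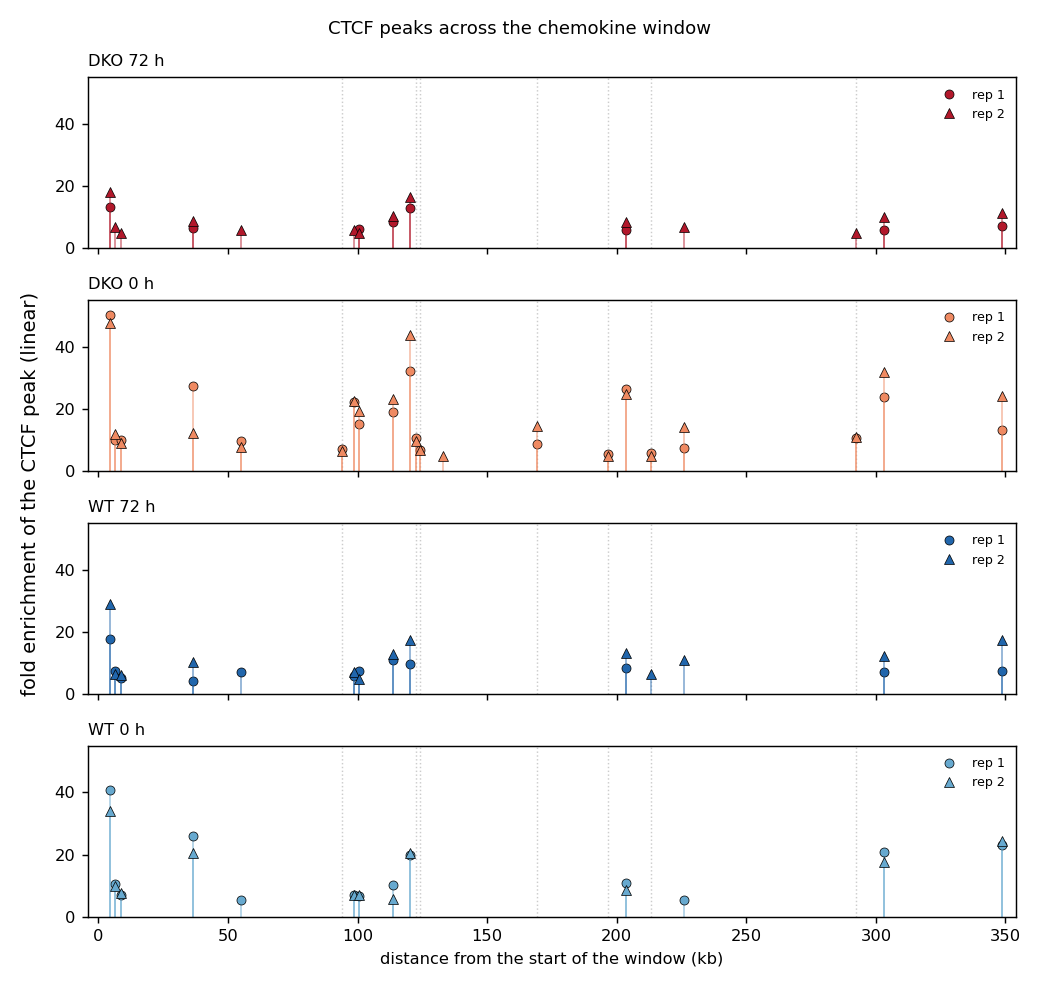
Fold enrichment (linear) of each CTCF peak against its distance from the start of the window in kb, with 1 panel per group and 1 symbol per replicate. Dotted lines mark the 7 regions listed at 0 h in both DKO libraries and in no WT library, and all 7 lie between 90 and 300 kb.

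Naive DKO cells had a peak in both libraries, with none in either WT library, at 7 of the 21 regions, beside 2.73% of all regions (percent called over the genome), and the reverse at 0 of 21, beside 4.88%. The window was chosen on this contrast, and regions with peaks in naive DKO lists only could not be called the other way. Nothing is therefore read from either share. In the flanks, 0 of 11 and 0 of 12 regions were of either kind. The flanks were not chosen on this contrast, so nothing is read from their difference from the window.

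The strongest of the 7 by mean fold was region 14 (chr11:83418938-83419443, 506 bp), with a fold of 8.80 and 14.6 in DKO. Region 19 (chr11:83542087-83542850) had 10.5 and 11.1, and region 11 (chr11:83372115-83372767) had 10.5 and 9.78. All 3 were in the middle ranks of the DKO lists, between the 33.3 and 58.0 percentiles of their list by the authors' p-value (100 being the strongest). Region 6 (chr11:83343766-83344493) had 7.08 and 6.55, and region 12 (chr11:83373779-83374331) had 6.62 and 6.86. Region 17 (chr11:83462797-83463305) had 5.79 and 4.94, and region 15 (chr11:83446129-83446872) had 5.36 and 4.94. The last 2 lay close to the lower limit of the lists, at the 14.9 and 5.2 percentiles for region 17 and the 10.3 and 5.2 percentiles for region 15. The summits of the DKO replicates were 26, 29, 28, 88 and 69 bp apart in regions 6, 11, 14, 17 and 19, and 123 and 130 bp apart in regions 12 and 15.

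The 7 regions spanned 199085 bp, from region 6 to region 19, and were interleaved with shared ones. Between these ends lay 14 regions: the 7, another 5 listed in all 4 libraries at 0 h, and regions 13 and 18. Region 13 (chr11:83382470-83383094) had a single peak of fold 4.94, in DKO replicate 2. Region 18 (chr11:83475436-83476149) had 7.36 and 14.1 in DKO, and 5.55 in WT replicate 1 alone. Outside the stretch, region 5 (chr11:83304740-83305481) was similar, with 9.66 and 7.63 in DKO and 5.37 in WT replicate 1 alone.

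Among the 11 regions listed in all 4 libraries at 0 h, those inside the stretch had the greater fold in DKO cells. The window and the ends of the stretch were both set by peaks of these same libraries. The fold values at 0 h, inside the stretch and toward the edges, are therefore a description. Region 7 (chr11:83348324-83349172) had a fold of 22.3 and 22.6 in DKO, against 6.96 and 6.87 in WT, and the means were 22.4 ± 0.217 and 6.92 ± 0.064 (SD, n = 2 each). Region 8 (chr11:83349956-83351177) had 15.3 and 19.5 in DKO, against 6.72 and 6.84 in WT. Region 9 (chr11:83363425-83364281) had 19.1 and 23.2 in DKO, against 10.1 and 5.60 in WT. In these neighbouring regions every DKO value exceeded every WT value, and the ratio of the means was 3.24, 2.56 and 2.70. In lists made from many cells, binding in more cells and more binding per cell cannot be told apart.

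Region 16 (chr11:83452799-83454303), the widest at 1505 bp, had a fold of 26.4 and 24.7 in DKO, against 10.8 and 8.57 in WT. Region 10 (chr11:83369602-83370654) had 32.0 and 43.7 in DKO, against 19.9 and 20.6 in WT. The groups did not overlap at either region, and the ratios were 2.64 and 1.87. At region 16 the summits of the DKO libraries fell on the same base, 83453799, while those of WT fell at 83453601 and 83453352.

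Toward the edges of the window the ratios were smaller. Region 1 (chr11:83253747-83254876) had the highest fold of the window, 50.2 and 47.6 in DKO against 40.7 and 34.1 in WT, and stood at or above the 99.69 percentile of all 8 lists. Its DKO over WT ratio was 1.31. Region 20 (chr11:83552462-83553505) had 24.0 and 31.9 in DKO, against 21.0 and 17.6 in WT, a ratio of 1.45. Region 3 (chr11:83258290-83259047) had 9.85 and 9.10 in DKO, against 6.89 and 7.81 in WT. At regions 1, 3 and 20 the groups did not overlap, with smaller gaps than inside the stretch.

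Regions 2, 4 and 21 overlapped between genotypes at 0 h. Region 2 (chr11:83256163-83256954) had a fold of 9.85 and 11.9 in DKO, against 10.4 and 10.02 in WT. Region 4 (chr11:83285957-83286898) had 27.2 and 12.2 in DKO, against 26.1 and 20.4 in WT. Region 21 (chr11:83598252-83599400) had 13.1 and 24.2 in DKO, against 23.0 and 24.5 in WT. It ended 600 bp inside the window, and the next region outside, chr11:83615403-83616020, had 6.65 and 10.3 in DKO and 9.43 and 6.52 in WT. At the other edge, the last region before the window, chr11:83238098-83238798, had 19.2 and 18.7 in DKO and 19.1 and 19.8 in WT, so both neighbours overlapped between genotypes as well.

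Counted together, the fold was higher in both DKO than in both WT libraries at 8 of the 11 shared regions, beside 28.2% of all regions in these 4 lists, and lower at 0 of 11, beside 15%. By rank percentile within the list DKO was also higher at 8 of 11, beside 20.3%, and lower at 0 of 11, beside 22.8%. The median ratio of DKO to WT was 1.45 over the 11 and 1.06 over all 24438 regions, or 0.54 and 0.08 on the log2 scale. In the flanks the fold was higher in both DKO libraries at 1 of 9 and 0 of 8 shared regions. The window was chosen on peaks of these libraries and the flanks were not, so nothing is read from these contrasts.

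**Figure D2:**
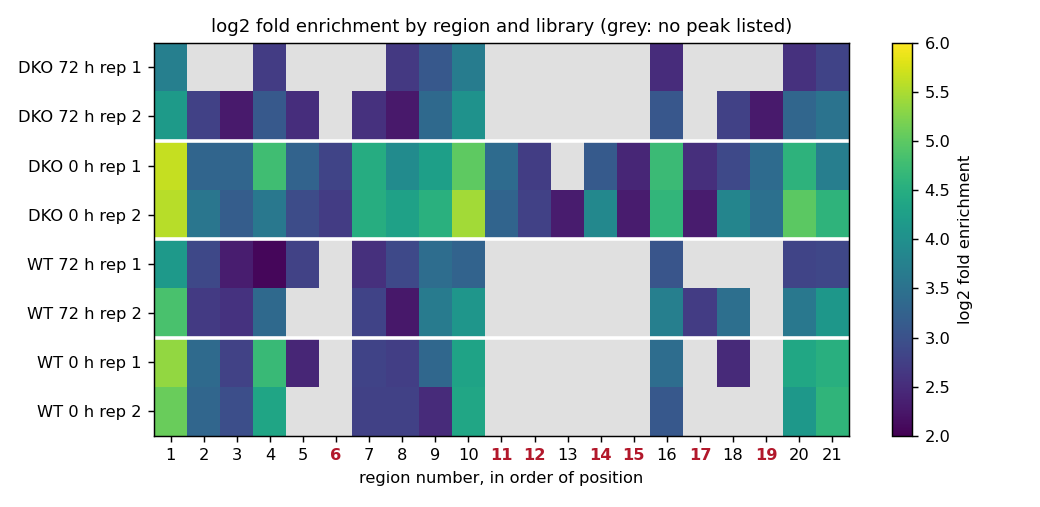
Log2 fold enrichment of the 21 regions (columns, in order of position) in the 8 libraries (rows), with grey where no peak was listed. Red numbers mark the 7 regions of DKO and not WT at 0 h, whose columns are grey in both WT 0 h libraries.

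At 72 h no region of the window was listed in both libraries of 1 genotype and in neither of the other. A peak in both DKO libraries alone was found at 0 of 21 regions, beside 0.0303% of all regions. The reverse was also found at 0 of 21, beside 6.37%. Regions with peaks in naive DKO lists only could be called in neither way. The lists differed in length, and the 4 lists at 72 h held, in DKO, 8 and 14 peaks of the window and, in WT, 12 and 13. As peaks per 1000 listed, these were 0.774 and 0.862 in DKO and 0.692 and 0.488 in WT. No p was computed for any region, because 2 libraries against 2 cannot go below an exact two-sided p of 0.3333. Leaving out DKO replicate 2, the longer DKO list, gave 3 regions of WT and not DKO (regions 2, 3 and 7), and leaving out WT replicate 1 gave 1 (region 17). Leaving out DKO replicate 1 gave 1 region of DKO and not WT (region 19).

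Where both genotypes were listed at 72 h, their fold values mostly overlapped. Region 7 had a fold of 5.93 in DKO replicate 2 alone, against 5.88 and 7.02 in the WT libraries. Region 8 had 6.31 and 4.84 in DKO, against 7.39 and 4.76 in WT, and region 10 had 12.8 and 16.4 in DKO, against 9.64 and 17.2 in WT. The DKO values of these regions thus lay within or near the range of WT.

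Region 9 had a fold of 8.57 and 10.3 in DKO at 72 h, against 10.8 and 12.7 in WT, and was the only one of the 8 regions in all 4 lists where DKO was lower in both libraries. That is 1 of 8, beside 50.6% of all regions in these lists. Region 16 had 5.71 and 8.48 in DKO, against 8.35 and 13.3 in WT, with an overlap. A higher fold in both DKO libraries was found at 0 of 8, beside 0.186%. By rank percentile DKO was higher at 1 of 8 (beside 1.94%) and lower at 1 of 8 (beside 44%). The median DKO over WT ratio was 0.816 over the 8 and 0.669 over all 9679 regions, and 7 of the 8 lay above the median of all.

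The remaining shared regions had a fold of 13.2 and 18.0 in DKO and 17.7 and 29.0 in WT at region 1, and 6.57 and 8.64 in DKO and 4.18 and 10.3 in WT at region 4. Region 20 had 5.95 and 9.98 in DKO and 7.10 and 12.2 in WT, and region 21 had 7.002 and 11.4 in DKO and 7.24 and 17.4 in WT. All 4 overlapped between genotypes. Regions 2 and 3 were listed in DKO replicate 2 alone (6.82 and 4.90), and in both WT libraries (7.29 and 6.40 at region 2, 4.99 and 6.02 at region 3).

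**Figure D3:**
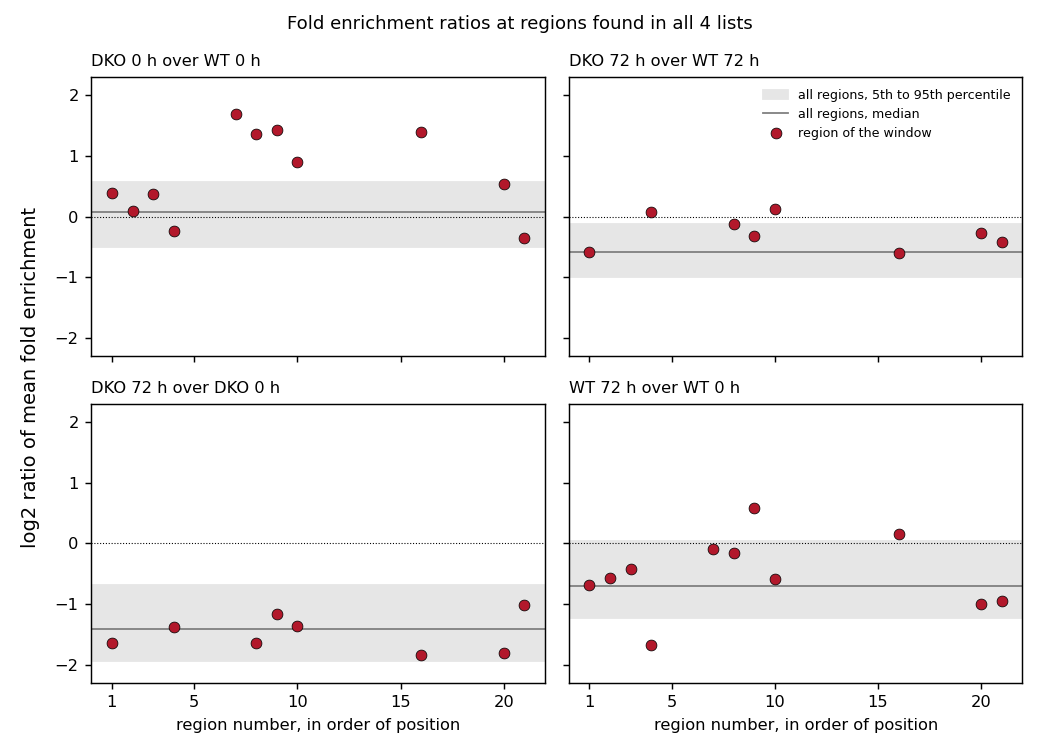
Log2 ratio of mean fold enrichment at each region found in all 4 lists of a comparison, against region number, for DKO over WT at 0 h and 72 h and for 72 h over 0 h in each genotype. The band and line give the 5th to 95th percentile and the median of all regions. At 0 h, regions 7, 8, 9, 10 and 16 lie above the band, and at 72 h region 9 lies inside it and regions 4, 8 and 10 lie above it.

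The regions of DKO and not WT at 0 h were mostly not listed at 72 h in either genotype. Of the 7, DKO replicates 1 and 2 at 72 h listed 0 and 1, and WT replicates 1 and 2 listed 0 and 1. Over all 1080 such regions of the genome these shares were 1.85% and 5.46% in DKO and 3.7% and 17.1% in WT. The 2 that recurred were region 19, with a fold of 4.90 in DKO replicate 2, and region 17, with 6.54 in WT replicate 2. Region 17 was therefore listed in both naive DKO libraries, close to the lower limit of those lists, and in WT replicate 2 alone at 72 h, the longer WT list.

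The regions listed in all 4 libraries at 0 h were mostly listed again. Of these 11, DKO replicates 1 and 2 at 72 h held 8 and 11, beside 40.9% and 62.7% of all such regions, and both WT replicates held 11, beside 65.2% and 86.9%. The 3 missing from DKO replicate 1 were regions 2, 3 and 7. In the flanks, DKO replicate 1 held 2 of 9 and 3 of 8, and WT replicate 1 held 5 of 9 and 7 of 8. Strong peaks are listed again more often than weak ones, and this was looked at after the values were seen for regions 7, 8 and 9, which had a mean WT rank at 0 h between the 20 and 30 percentiles. All 3 were listed in both WT libraries at 72 h, beside 19.6% of the 2092 regions in that range of rank. In the flank after the window this held at 2 of 3 such regions, and the flank before it had none in that range. Regions 7, 8 and 9 had also been singled out by a high fold in DKO at 0 h, while the 2092 were taken by WT rank alone. The shares are therefore not like for like, and nothing is read from them.

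**Figure D4:**
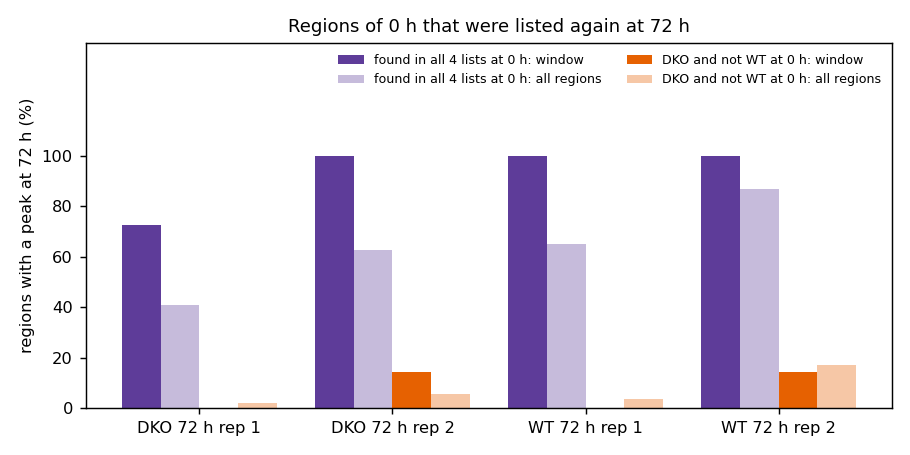
Percent of regions found at 0 h that had a peak in each library at 72 h, for regions in all 4 lists at 0 h (purple) and for regions of DKO and not WT at 0 h (orange). Full colour is the window (11 and 7 regions) and pale colour all regions. The purple bars of the window reach 100% in 3 of 4 libraries.

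Comparison of 72 h with 0 h within DKO cells found 6 regions listed in both naive libraries but in no 72 h library (regions 6, 11, 12, 14, 15 and 17), which is 6 of 21 beside 29.1% of all regions. The reverse was found at 0 of 21, beside 0.116%. The fold was higher in both libraries at 72 h at 0 of 8 regions in all 4 DKO lists, beside 0.193%, and lower in both at 8 of 8, beside 97.6%. The median ratio of 72 h to 0 h was 0.352 over the 8 and 0.376 over all 9822 regions. The share with a lower fold and the median ratio stood near those of the genome. All 6 regions listed only at 0 h were among the regions of DKO and not WT at 0 h, for which the window was chosen. Nothing is therefore read from 6 of 21 beside 29.1%. With lists of equal length (10339 peaks), 1 region was found at 0 h and not at 72 h. It was region 7 and none of the 6, which all ranked too low at 0 h to be kept. Region 7 stood at the 79.4 percentile of both DKO lists at 0 h. At 72 h it was listed only in DKO replicate 2, at the 22.4 percentile, and was cut there. Leaving out DKO 72 h replicate 2 gave 12 regions.

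In WT cells no region of the window was listed in both libraries of 1 time and in neither of the other. Listed in both naive WT libraries but in no 72 h library were 0 of 21 regions, beside 13% of all regions, and the reverse was 0 of 21, beside 0.576%. Only the 11 regions listed in both naive WT libraries could be called in the first way. The window was chosen for the 7 regions with no naive WT peak, so nothing is read from these shares. Of the 8 regions whose fold at 0 h was higher in both DKO libraries, regions 7, 8, 9 and 16, with the greatest DKO over WT ratios at 0 h, had WT means of 6.45 ± 0.806, 6.08 ± 1.86, 11.7 ± 1.35 and 10.8 ± 3.47 at 72 h, and of 6.92 ± 0.064, 6.78 ± 0.0868, 7.84 ± 3.18 and 9.67 ± 1.57 at 0 h (SD, n = 2 each). Their ratios of 72 h to 0 h were 0.933, 0.896, 1.495 and 1.12, against a median of 0.617 over all 16275 regions in the WT lists. The other 4 had ratios nearer that median, 0.623 at region 1, 0.749 at region 3, 0.664 at region 10 and 0.50 at region 20. Regions 7, 8, 9 and 16 were picked by a ratio that holds the WT fold at 0 h, which is also the divisor here. Higher ratios of 72 h to 0 h are thus partly built into that choice, and nothing is read from them. Regions 7 and 8 also lay near the fold of 4, under which no peak was listed. Over all 11 shared regions of the window the median ratio of 72 h to 0 h in WT was 0.67. The fold was higher in both libraries at 72 h at 1 of 11, beside 1.22%, and lower at 7 of 11, beside 75.7%.

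The same regions in DKO cells had ratios of 72 h to 0 h of 0.321 at region 8, 0.446 at region 9 and 0.278 at region 16, where region 7 had no value because it was not listed in DKO replicate 1. On the log2 scale, the DKO ratio minus the WT ratio was -1.48, -1.75 and -2.01 at regions 8, 9 and 16. At the other 5 regions in all lists it was -0.96 (region 1), 0.31 (region 4), -0.78 (region 10), -0.81 (region 20) and -0.07 (region 21). It was -0.89 in the median of the 8 regions in all lists and -0.68 in that of all 9591, with the 5th percentile of all at -1.23. The DKO and WT libraries at 0 h entered the choice of the window and are part of these differences, which were not tested. Regions 8, 9 and 16 were also picked by their DKO over WT ratio at 0 h, which is a term of the difference. Low values at these regions are thus partly built into that choice. A lower fold in both DKO and a higher fold in both WT libraries at 72 h was found at 1 of the 8 (region 9), beside 0.282%.

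The share of each list that fell in the window was 0.818 ± 0.0627 peaks per 1000 in DKO cells at 72 h and 0.664 ± 0.0064 in DKO cells at 0 h (SD, n = 2 each). It was 0.59 ± 0.144 in WT cells at 72 h and 0.377 ± 0.0309 in WT cells at 0 h (SD, n = 2 each). The mean difference of 72 h minus 0 h over both genotypes was 0.183 per 1000. It is given as a description with no test, since the libraries at 0 h are those on which the window was selected. Each library at 72 h exceeded both of its genotype at 0 h. With every list shortened to its 10339 top peaks the difference was 0. In those lists the window held 8 and 7 peaks for DKO and 5 and 7 for WT at 72 h, and 8 and 9 for DKO and 5 and 5 for WT at 0 h.

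**Figure D5:**
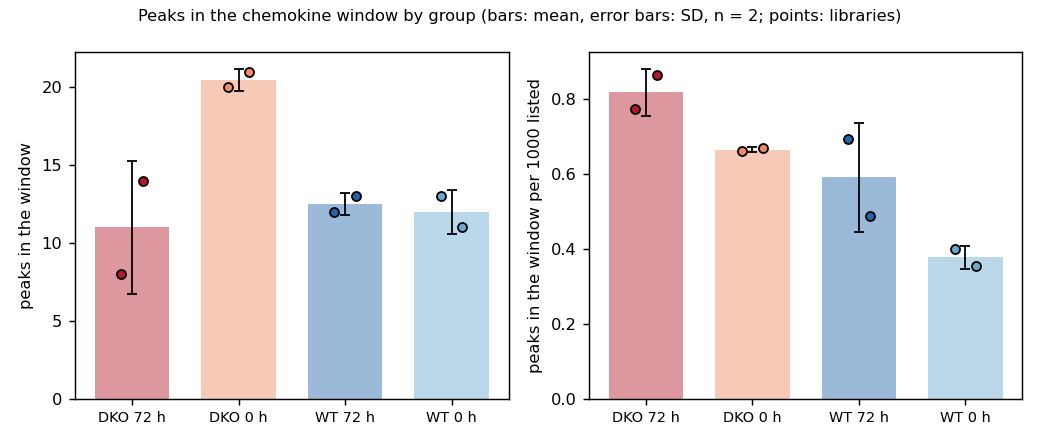
Number of peaks in the window (left) and peaks in the window per 1000 listed (right) by group, with bars for the mean, error bars for the SD of 2 libraries and points for the libraries. DKO at 0 h had 20 and 21 peaks, and the other libraries had 8 to 14.

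Summits of regions 8 and 16 were spread more widely between libraries than those of other regions, over 645 and 508 bp. In region 16 the DKO summits at 72 h were at 83453847 and 83453354 and the WT summits at 72 h at 83453352 and 83453339. Base 83453352 was the summit of WT replicate 1 at 72 h and of WT replicate 2 at 0 h. The summit spread was 248 bp or less at the other 19 regions, 0 at region 13, which had 1 peak.

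The profile of the window over libraries was compared with that of 2924 other tiles of 350 kb that held at least 5 regions, by Pearson correlation of the regions found per 1000 listed peaks over the 8 libraries. Every tile shares the list lengths with the window, so the values describe likeness only. The closest 5 tiles were chr14:60150000-60500000 (r = 0.95), chr1:62600000-62950000 (0.947), chr7:74850000-75200000 (0.937), chr6:96900000-97250000 (0.928) and chr6:133650000-134000000 (0.918). Their regions numbered 5, 10, 7, 15 and 8, of which 1, 2, 1, 1 and 0 were of DKO and not WT at 0 h, against 7 of 21 in the chemokine window. The chemokine window was chosen for regions of that kind and the tiles were not, so nothing is read from that contrast.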

How the data were processed

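CTCF CUT&RUN peak lists (narrowPeak) of 8 libraries and 1 IgG list were used, 1 list per library and not pooled. Groups and replicate numbers came from the sample titles. The build was mm9 and the tools listed were MACS2 2.1.1, Bowtie2 2.2.5 and FastQC, per the submitters' processing notes; no source here names the control or the thresholds of the calling. The deposited fold column is the ratio of a peak to its local background, the deposited −log10 p-value and q-value columns and the score are those of the authors' peak caller, and the summit is a distance in bp. The authors' lists of CTCF peaks held none of fold under 4. Fold and rank percentile (by −log10 p within a list) describe peaks.

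Peaks on chromosomes 1 to 19 and X were merged at an overlap of 1 bp with Python 3.11.15 and pandas 2.3.3, which left out 5 CTCF peaks. A region counted for 1 group where its 2 libraries had a peak and those of the other group had none. Merging, calling and the permutation were tested on simulated data. All regions of the window were accounted for, with values per library for those specific to a genotype, found in all 8 lists or highest in fold, and tiles were named by the 5 closest correlations. Window, members and lists were chosen with earlier results of these data known. Alternatives were a q-value limit, equal list lengths, 50% overlap, summits within 100 bp, a window wider by 50 kb, each library left out, a replicate block and regions in place of shares. Scaling by the list median and rank at equal length were added after seeing the data.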

Additional observations from a re-analysis of the deposited data

Results flagged for a closer look

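The fold at region 9 (chr11:83363425-83364281) moved in opposite directions over time in the 2 genotypes. In DKO cells it was 8.57 and 10.3 at 72 h and 19.1 and 23.2 at 0 h, a ratio of means of 0.446. In WT cells it was 10.8 and 12.7 at 72 h and 10.1 and 5.60 at 0 h, a ratio of 1.5, with WT 0 h replicates far apart. The median ratio over all regions was 0.376 in the DKO lists and 0.617 in the WT lists, so region 9 fell less than the median in DKO. Its rank percentiles in DKO were 64.4 and 65.9 at 72 h and 69.4 and 76.2 at 0 h. In WT they were 68.5 and 64.0 at 72 h and 42.6 and 14.8 at 0 h. The same pattern, lower in both DKO and higher in both WT libraries at 72 h, was found at 27 of the 9591 regions in all 8 lists (0.282%) and at 1 of the 8 such regions of the window. The difference between genotypes was not tested, and the DKO and WT libraries at 0 h took part in the choice of the window.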

How the results depend on the processing

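The 7 regions of DKO and not WT at 0 h numbered 6 with a −log10 q of at least 5 and 7 under equal length, 50% overlap, summits within 100 bp and the wider window, and ran from 7 to 9 with 1 library left out. The count of WT and not DKO at 0 h was 0 under all of these except for summits within 100 bp, which gave 1. A higher fold in both DKO libraries at 0 h, at 8 of 11 regions beside 28.2% of all, was found at 8 of 11 with fold scaled by the list median (beside 22.9%) and with ranks at equal length (beside 24.0%). Without DKO replicate 1 or 2 it was 9 of 11 (beside 47.2% and 40.2%), without WT replicate 1 it was 8 of 11 (beside 50.5%), and without WT replicate 2 it was 10 of 13 (beside 36.7%). The window was chosen on peaks of these libraries, so all these counts at 0 h are a description. At 72 h, leaving out 1 library gave 0 to 1 regions of DKO and not WT and 0 to 3 of WT and not DKO.

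The DKO regions listed at 0 h and not at 72 h numbered 6, and 1 at equal length, which was region 7 and none of the 6. There were 7 with a −log10 q of at least 5 and with the wider window. With 50% overlap there were 6, and with summits within 100 bp there were 4. Leaving out 1 library gave 6 to 12. In WT, equal length gave 1 region of 72 h and not 0 h, summits within 100 bp gave 1 of 0 h and not 72 h, and leaving out 1 library gave 0 to 1 of 72 h and not 0 h. The share of the list in the window differed between the times by 0.183 per 1000. This was 0 at equal length and 0.132 to 0.234 with 1 library left out. The exact two-sided permutation test of the times within genotype gave p = 0.0556 (36 assignments), and 0.125 with a replicate block (16 assignments). Each is the smallest its design allows and lies above 0.05, so neither could pass, and the libraries at 0 h also entered the choice of the window: nothing is read from these p-values. Counted as regions, the difference of 72 h minus 0 h was -4.5, from means of 11 at 72 h and 20.5 at 0 h in DKO and of 12.5 and 12 in WT; the cause was not tested. Read depth was not given, so how far it limits the listing of weak peaks was not tested.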
